A study of Homo sapiens with 4 samples.

Results

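The 56 human genes described here encode the chains of the collagens (44 genes) and of the laminins (12 genes), out of 61543 genes in the deposited table. They are the protein-coding genes named COL or LAMA, LAMB or LAMC with chain numbers. This rule uses symbol and gene type, but it was set with earlier results of these data known. Their messages were measured in medium conditioned by HEK293T, a cell line derived from human embryonic kidney and grown with fetal bovine serum. In EPN24-Cas13d, 2 libraries came from supernatant with nanocages (secreted protein shells) whose EPN24 subunit is fused to Cas13d, an RNA-guided CRISPR nuclease that binds RNA. In EPN24, 2 libraries came from supernatant with nanocages of EPN24 alone. The design asks which RNAs the fusion brings into the secreted shells, but total supernatant RNA was sequenced, so RNA inside and outside the shells cannot be told apart. Neither how the constructs were delivered nor whether the replicates were separate cultures is given in the sources used here, so each p-value reflects the spread among these 4 libraries and that spread may be purely technical. In a bulk supernatant, RNA from fewer cells and less RNA per cell cannot be told apart either.

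The total of gene counts was 5097332 and 4863449 for EPN24-Cas13d and 1830860 and 1903492 for EPN24. The ERCC transcripts, synthetic RNAs added in equal amount to each 200 µl of supernatant, give another scale: gene counts per ERCC count were 58.1 ± 1.68 in EPN24-Cas13d and 3.95 ± 0.231 in EPN24 (SD, n = 2 each). Values are given as CPM (counts scaled to a common library total) after TMM scaling, which sets a trimmed, weighted mean of gene ratios level between libraries, so a change is relative to the other RNA of the same library. The median gene is not level on this scale: over all tested genes the median log2 fold change was -0.96, and 0.055 over the better counted genes that a stricter filter (a minimum of 10 counts and 10 CPM) kept. A floor of 3 counts equals 0.721 and 0.755 CPM in EPN24-Cas13d and 1.34 and 1.42 CPM in EPN24. Floors and intervals cover counting error only, because PCR copies are counted without molecular identifiers, and intervals may be too narrow where both mates of a read pair were counted. Of 10 genes listed as expressed in HEK293T, all had counts in both groups, and they summed to 2165 and 2159 CPM in EPN24-Cas13d, against 386 and 400 CPM in EPN24, although 5 of them were called higher and 2 lower. Of 7 markers of fibroblasts, the cells best known for collagen, 5 had counts in EPN24-Cas13d and 7 in EPN24, with sums of 6.13 and 5.29 CPM against 55.8 and 44.0 CPM, and LUM and POSTN were at 0 in EPN24-Cas13d. Of 6 red blood cell markers, 3 had counts in EPN24-Cas13d and 4 in EPN24, where HBA1 and HBB were at 0, and 2 were called lower. Red blood cell markers summed to 0.481 and 0.629 CPM in EPN24-Cas13d, against 15.2 and 10.4 CPM in EPN24, and liver markers to 7.45 and 5.54 CPM, against 44.2 and 37.4 CPM. These sums and most collagens were thus lower in the same libraries, and their part in the collagen values was not tested.

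Collagens are the main fibrous proteins of the extracellular matrix. Their chains carry long runs of Gly-X-Y repeats, in which a glycine recurs at a fixed spacing so that chains can wind into a helix, and classes differ in what the helices build: fibrils, beaded filaments, the sheet of the basement membrane, or links between these. Laminins are cross-shaped proteins of an alpha, a beta and a gamma chain that assemble into the other sheet of the basement membrane and bind cells through integrins and dystroglycan. Epithelial cells, including those of the kidney, rest on such a membrane, whereas fibrils are mostly the product of fibroblasts and bone and cartilage cells.

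Relative to other RNA, most laminin messages were higher in EPN24-Cas13d than in EPN24 and most collagen messages were lower. The laminin majority was not kept under the stricter filter, where 4 of 10 were higher and 3 lower. Per ERCC count COL15A1 alone was called lower. Of the 56 genes, 54 had enough counts to be tested with edgeR's quasi-likelihood test, and at a Benjamini-Hochberg adjusted p of 0.05 over all 20476 tested genes 13 were higher, 34 lower and 7 not called. Over all tested genes 32.6% were called higher and 48.2% lower, so calls in both directions are the rule in this comparison. The 12 laminins split into 7 higher, 4 lower and 1 not called, with a median log2 fold change of 1.35. Of 42 tested collagens 6 were higher, 30 lower and 6 not called, with a median of -2.83. The median over all tested members was -2.46, also with COL15A1 (at 0 in EPN24-Cas13d) set to its bound, and that over all tested genes was -0.96. By CPM, 14 members in the higher and 37 in the lower direction had groups that did not overlap, and over all tested genes 36.8% and 54.3% did. Scaled by ERCC totals, that is per volume of supernatant, every fold change moves up by a median of 3.34 on the log2 scale, and the split becomes 24 higher, 1 lower and 29 not called, as described further down.

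**Figure D1:**
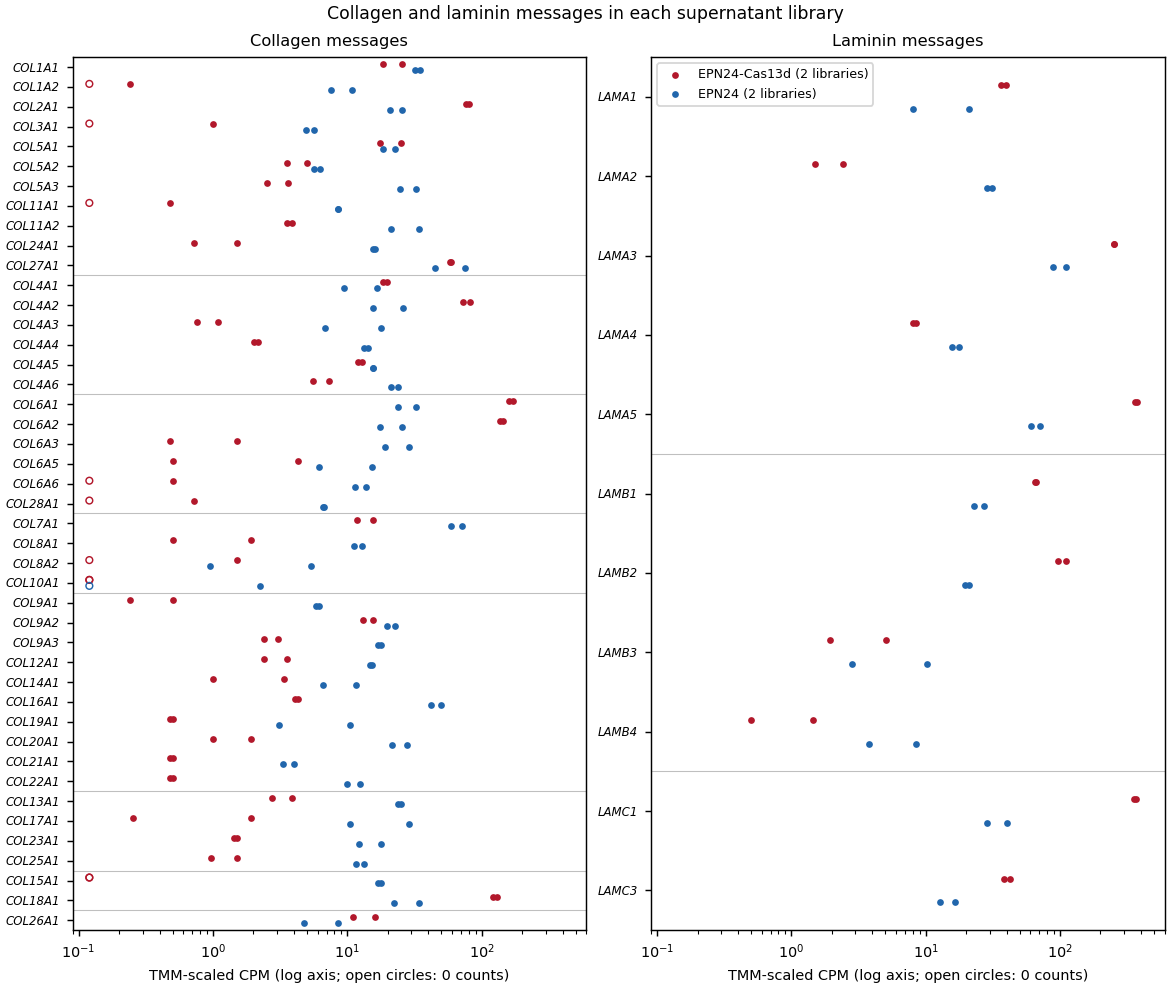
TMM-scaled CPM (log axis) of the 44 collagen genes (left) and 11 laminin genes (right), with a point per library, EPN24-Cas13d in red above EPN24 in blue, open circles for libraries with 0 counts and grey lines between structural classes. In EPN24-Cas13d the collagens run from 0 to 172 CPM and separate into a few high and many very low messages, while in EPN24 they run from 0 to 75.7 CPM with most at a similar level.

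Laminins of all chain types were among the higher messages. LAMC1, the gamma chain shared by most laminins (ENSG00000135862.6, chromosome 1, 183023420 to 183145592 on the plus strand), had 369 and 354 CPM in EPN24-Cas13d, against 40.1 and 28.4 CPM in EPN24. Both EPN24-Cas13d libraries lay far above both EPN24 libraries, and LAMC1 had the largest increase of all members, with a log2 fold change of 3.39 (approximate SE 0.16, edgeR adjusted p = 1.2e-10). LAMA5, the alpha chain of the main laminins of mature epithelial basement membranes (ENSG00000130702.15, chromosome 20, 62307955 to 62367312 on the minus strand), had 376 and 362 CPM in EPN24-Cas13d and 60.7 and 70.5 CPM in EPN24. The groups did not overlap, and the log2 fold change was 2.49 (SE 0.13, edgeR adjusted p = 4.5e-10). LAMB2, the beta chain of the mature kidney filter, had 96.9 and 111 CPM in EPN24-Cas13d, against 19.6 and 20.8 CPM in EPN24, a log2 fold change of 2.36 (SE 0.20, edgeR adjusted p = 1.0e-07). LAMB1, the beta chain of embryonic laminins, had 65.1 and 66.3 CPM in EPN24-Cas13d and 27.2 and 22.7 CPM in EPN24, again without overlap but with a smaller log2 fold change of 1.39 (SE 0.21, edgeR adjusted p = 4.6e-05). LAMC3, LAMA1 and LAMA3 were higher as well, with log2 fold changes of 1.46, 1.37 and 1.34. LAMA3, a chain of the laminin that anchors skin, had the highest level per length of any laminin in EPN24, 6.85 CPM per kb of deposited exon length, and 17.3 in EPN24-Cas13d.

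The other laminins did not share this direction relative to other RNA, although per ERCC count LAMA4 and LAMB3 were higher and LAMA2 and LAMB4 were not called. LAMA2, the alpha chain of muscle, was lower with a log2 fold change of -3.90, as were LAMB4 (-2.60) and LAMA4, a chain of blood vessel walls (-1.0, edgeR adjusted p = 0.0203). LAMB3, a beta chain found in skin, had 1.92 and 5.03 CPM in EPN24-Cas13d and 10.3 and 2.84 CPM in EPN24, groups that overlap, and was not called (log2 fold change -0.92, SE 0.72, edgeR adjusted p = 0.248). The LAMA4 call was lost without either EPN24-Cas13d library (log2 fold changes of -0.97 and -1.03) and without EPN24 replicate 2 (-0.89). It was also lost with no filter (edgeR adjusted p = 0.214), by the DESeq2 Wald test (0.121), with the trend in GC content removed (edgeR adjusted p = 0.180) and with background counts subtracted (0.127). The stricter filter kept it (-2.03, edgeR adjusted p = 3.0e-04). LAMB4 was not called without EPN24 replicate 1 (log2 fold change -1.90), and LAMB1, LAMA1 and LAMC3 were not called under the stricter filter, with log2 fold changes of 0.36, 0.34 and 0.43. That filter, under which fold changes fell by a median of 1.03 on the log2 scale over the genes it kept, left 40 members, 9 higher and 26 lower, against 39.7% and 40.2% of all genes it kept. Among them were 10 laminins, 4 higher and 3 lower, so the higher share of laminins was close to that of all genes there. Reads on LAMA1 may in part belong to an annotated lncRNA on the opposite strand that covers 10.3% of its exon length, since the strand setting of the counting is not given, although that lncRNA itself held 12 counts in EPN24-Cas13d and 1 in EPN24.

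Summed per length, all chain types were higher in EPN24-Cas13d, gamma chains the most. Alpha chains summed to 46.3 ± 0.648 CPM per kb in EPN24-Cas13d and 14.9 ± 1.18 in EPN24 (SD, n = 2 each). Beta chains summed to 19.6 ± 1.88 CPM per kb in EPN24-Cas13d and 6.57 ± 1.65 in EPN24. Gamma chains, mostly LAMC1, summed to 47.7 ± 1.55 CPM per kb in EPN24-Cas13d and 8.38 ± 1.02 in EPN24. Groups did not overlap for any of these sums, and each gave p = 0.333 in an exact two-sided permutation test, the smallest p that 2 libraries against 2 allow. LAMB2 exceeded LAMB1 per length 4.03-fold and 4.54-fold in EPN24-Cas13d, against 1.95-fold and 2.48-fold in EPN24.

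Type VI collagen, the beaded filament that links cells to the fibrils around them, divided sharply by chain. Its alpha 1 and alpha 2 chains were the highest collagen messages per length in EPN24-Cas13d, while its COL6A3 and COL6A6 chains were among the lowest; per ERCC count the first pair was higher and none of the other chains was called. COL6A1 (ENSG00000142156.16, chromosome 21, 45981770 to 46005050 on the plus strand) had 161 and 172 CPM in EPN24-Cas13d, against 23.6 and 32.2 CPM in EPN24. COL6A2, its neighbour on the same strand (ENSG00000142173.16, chromosome 21, 46098112 to 46132848), had 138 and 144 CPM in EPN24-Cas13d, against 25.4 and 17.5 CPM in EPN24. For both genes the groups lay far apart, with log2 fold changes of 2.58 (SE 0.18, edgeR adjusted p = 1.1e-08) for COL6A1 and 2.71 (SE 0.20, edgeR adjusted p = 1.8e-08) for COL6A2. Their ratio per length, COL6A1 over COL6A2, was 1.12 and 1.15 in EPN24-Cas13d and 0.896 and 1.77 in EPN24. COL6A3, the chain that completes the common type VI molecule, had 0.481 and 1.51 CPM in EPN24-Cas13d (2 and 6 counts), against 29 and 18.9 CPM in EPN24 (65 and 40 counts). Per length COL6A3 stood at 0.0463 CPM per kb in EPN24-Cas13d and 1.11 in EPN24, where COL6A1 stood at 30.1 in EPN24-Cas13d and 5.04 in EPN24. Its EPN24-Cas13d values were at or near the floor, without overlap with EPN24, and the log2 fold change was -4.55 (SE 0.55, edgeR adjusted p = 4.3e-06). COL6A6, an alternative to that chain, had 0 and 0.503 CPM in EPN24-Cas13d (0 and 2 counts), against 13.8 and 11.4 CPM in EPN24 (31 and 24 counts). With so few counts its log2 ratio is best given as a counting ratio, -5.68 with a 95% interval of -8.76 to -3.76. COL28A1, a collagen of related build with 3 counts over both EPN24-Cas13d libraries, was lower by a log2 counting ratio of -4.17 (95% interval -6.53 to -2.48), and COL6A5 by a log2 fold change of -2.12. COL6A5 lost its call without EPN24-Cas13d replicate 2 (adjusted p = 0.0935) or EPN24 replicate 1 (0.291) and COL28A1 without EPN24 replicate 1 (0.0852) or 2 (0.0782).

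The coding sequence of COL6A2 and COL6A3 is printed here, because these chains share the same repeat but went in different directions relative to other RNA. Each line is the first 7 Gly-X-Y repeats of the chain's longest unbroken run of repeats, from the GENCODE 29 transcript on build 38, 5′ to 3′, with the glycine codons in capitals.
COL6A2: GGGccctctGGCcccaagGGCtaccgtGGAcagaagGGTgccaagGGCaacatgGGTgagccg
COL6A3: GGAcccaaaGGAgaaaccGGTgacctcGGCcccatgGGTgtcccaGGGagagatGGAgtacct
These stretches start at bases 870 and 6955 of the transcripts of COL6A2 and COL6A3. COL6A1 and COL6A2 each hold a run of 87 repeats and COL6A3 one of 45. The fixed part, GG, is the same in all glycine codons, while the last base is G or C in 65.4% of the glycine codons of COL6A1, 60.6% of those of COL6A2 and 47.5% of those of COL6A3. The GC content of the whole coding sequence was 65% in COL6A1, 65.6% in COL6A2 and 54.4% in COL6A3.

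Among the 6 type IV chains, which build the collagen sheet of every basement membrane, only COL4A2 was higher relative to other RNA (4 of the 6 were higher per ERCC count). COL4A1 and COL4A2 form the molecule found in all tissues, and their genes stand head to head on chromosome 13. Their annotated starts lie 1345 bp apart, each within the other gene, so the annotated spans overlap there. COL4A2 (ENSG00000134871.19, 110305812 to 110513209 on the plus strand) had 81.5 and 72.0 CPM in EPN24-Cas13d, against 25.9 and 15.6 CPM in EPN24. COL4A1 had 18.3 and 19.6 CPM in EPN24-Cas13d, against 16.5 and 9.47 CPM in EPN24. Neither gene's groups overlapped, but only COL4A2 passed the test, with a log2 fold change of 1.88 (SE 0.24, edgeR adjusted p = 8.5e-06) against 0.54 (SE 0.34, edgeR adjusted p = 0.162) for COL4A1, and the difference between these fold changes was not tested. COL4A1 did pass without EPN24 replicate 1 (log2 fold change 1.02, adjusted p = 0.0256). Per length, COL4A2 exceeded COL4A1 3.39-fold and 2.79-fold in EPN24-Cas13d and 1.19-fold and 1.26-fold in EPN24, with deposited exon lengths of 19271 bp and 14662 bp. Of the tissue-restricted chains, COL4A3 (-3.78), COL4A4 (-2.70) and COL4A6 (-1.79) were lower, and COL4A5 (-0.33, edgeR adjusted p = 0.375) was not called. COL4A3 lost its call without EPN24 replicate 1 (adjusted p = 0.0781). COL4A3 and COL4A4, starting 171 bp apart on chromosome 2, were both lower, while of COL4A5 and COL4A6, starting 341 bp apart on chromosome X, COL4A6 alone was called.

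The multiplexins, basement membrane collagens whose ends are cut to release endostatin-type fragments, went in opposite directions relative to other RNA. COL18A1, the source of endostatin (ENSG00000182871.16, chromosome 21, 45405165 to 45513720 on the plus strand), had 121 and 131 CPM in EPN24-Cas13d, against 33.9 and 22.3 CPM in EPN24. Its groups did not overlap, and the log2 fold change was 2.16 (SE 0.20, edgeR adjusted p = 3.0e-07). Exons of SLC19A1, a folate carrier gene on the opposite strand, cover 18.5% of its exon length and held 2441 counts in EPN24-Cas13d and 95.5 in EPN24, against 1021.5 and 123 on COL18A1 itself, and with the strand setting unknown the part of these reads in the result was not tested. COL15A1 (ENSG00000204291.11, chromosome 9, 98943179 to 99070792 on the plus strand) had 0 counts in both EPN24-Cas13d libraries, against 40 and 36 counts, or 17.8 and 17.0 CPM, in EPN24. Against a floor of 3 counts per library it was at least 23.7-fold lower (edgeR adjusted p = 2.9e-06). Per ERCC count it was at least 2.29-fold lower, and it was the only member called lower on that scale.

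The fibrillar chains, which make the cables of bone, skin and cartilage, were mostly lower relative to other RNA, with 1 of 11 higher, 7 lower and 3 not called (5 higher and 0 lower per ERCC count). COL2A1, the cartilage chain (ENSG00000139219.19, minus strand of chromosome 12, 47972967 to 48004554), rose, with 76.7 and 80.8 CPM in EPN24-Cas13d, against 25.4 and 20.8 CPM in EPN24. The groups did not overlap, and the log2 fold change was 1.76 (SE 0.21, edgeR adjusted p = 3.5e-06). Of the chains of type I collagen, the main protein of bone and skin, COL1A1 had 18.3 and 25.7 CPM in EPN24-Cas13d, against 32.1 and 34.6 CPM in EPN24. Its log2 fold change of -0.60 (SE 0.26) passed by a narrow margin (edgeR adjusted p = 0.048) and did not pass when any of the 4 libraries was left out (-0.87 to -0.38). Nor did it pass with no filter (edgeR adjusted p = 0.463), by the DESeq2 Wald test (0.199), by limma-voom (0.0596) or with a replicate block (0.0674). It was called lower with the GC trend removed (-2.10, edgeR adjusted p = 1.5e-06), the stricter filter (-1.63, 2.0e-04) and background subtracted (-1.23, 0.0094). COL1A2 had 0.240 and 0 CPM in EPN24-Cas13d (1 and 0 counts), against 7.58 and 10.9 CPM in EPN24 (17 and 23 counts). On so few counts the counting ratio was -6.22 on the log2 scale, with a 95% interval of -11.6 to -3.66, and the edgeR adjusted p was 1.6e-04. COL11A1, a minor chain inside cartilage fibrils, had 0.481 and 0 CPM in EPN24-Cas13d (2 and 0 counts), against 8.47 and 8.52 CPM in EPN24 (19 and 18 counts), a log2 counting ratio of -5.11 (95% interval -8.21 to -3.16). COL24A1 (-3.79), COL3A1 (-3.32), COL5A3 (-3.20) and COL11A2 (-2.91) were lower, and COL5A1 (0.06), COL27A1 (-0.04) and COL5A2 (-0.47) were not called. Without either EPN24 library COL3A1 lost its call (adjusted p = 0.147 and 0.186).

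The pair of type I chains, which combine in fixed proportion in the protein, carries the same repeat with different codons. The lines give the first 7 Gly-X-Y repeats of the longest run in COL1A1 (chromosome 17, transcript base 654) and COL1A2 (chromosome 7, transcript base 742), with glycine codons in capitals.
COL1A1: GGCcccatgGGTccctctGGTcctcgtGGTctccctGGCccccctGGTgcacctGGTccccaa
COL1A2: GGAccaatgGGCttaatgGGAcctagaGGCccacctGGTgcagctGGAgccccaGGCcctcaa
The runs are 338 repeats long in COL1A1 and 339 in COL1A2. Over the whole coding sequence glycine codons end in G or C in 34.8% of cases in COL1A1 and 27.0% in COL1A2. The printed stretches have the opposite order, with 2 of 7 such codons in COL1A1 and 3 of 7 in COL1A2. The coding sequence holds 65.1% GC in COL1A1 and 58.8% in COL1A2. Over the 42 tested collagens the share of glycine codons ending in G or C and the log2 fold change had a Spearman rho of 0.35 (Pearson r 0.32), a description over genes that share libraries and base composition.

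No fibril-associated or transmembrane collagen was called higher relative to other RNA, and per ERCC count only COL9A2 was. The fibril-associated chains, which sit on fibrils and link them to the matrix, gave 9 lower of 10 and 1 not called. COL9A2, a cartilage chain, was the one not called, with 13 and 15.6 CPM in EPN24-Cas13d, against 19.6 and 22.7 CPM in EPN24 (log2 fold change -0.57, SE 0.31, edgeR adjusted p = 0.103), while its partners COL9A3 (-2.67) and COL9A1 (a log2 counting ratio of -4.02, 95% interval -6.38 to -2.31) were lower. Other settings did call COL9A2 lower. These were total counts (-1.08, edgeR adjusted p = 0.0056), the stricter filter (-1.59, 5.5e-04), the GC trend removed (-2.51, 1.4e-06) and background subtracted (-1.28, 0.012). COL22A1, found at the tendon end of muscle fibres, had 0.481 and 0.503 CPM in EPN24-Cas13d (2 and 2 counts), against 12.5 and 9.94 CPM in EPN24 (28 and 21 counts), a log2 fold change of -4.40 (SE 0.74, edgeR adjusted p = 1.1e-04). The rest of this class, COL20A1 (-4.03), COL19A1 (-3.67), COL16A1 (-3.45), COL21A1 (-2.80), COL12A1 (-2.32) and COL14A1 (-2.03), were lower. COL21A1 and COL9A1 lost their calls without either EPN24 library (COL21A1 adjusted p = 0.318 and 0.218, COL9A1 0.0825 and 0.0910), COL19A1 without EPN24 replicate 2 (0.324), and COL14A1 without EPN24-Cas13d replicate 2 (0.0877) or EPN24 replicate 1 (0.163). All 4 transmembrane collagens were lower, and of these COL23A1 had the highest level per length in EPN24-Cas13d, with 1.44 and 1.51 CPM there (6 and 6 counts), against 17.8 and 12.3 CPM in EPN24 (40 and 26 counts). Its log2 fold change was -3.32 (SE 0.56, edgeR adjusted p = 1.1e-04), within the range of -4.12 to -2.86 of that class.

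COL7A1, which forms the anchoring fibrils under the skin, had 11.8 and 15.6 CPM in EPN24-Cas13d, against 71.8 and 59.2 CPM in EPN24. It had the highest level per length of any collagen in EPN24, 5.88 CPM per kb, against 1.23 in EPN24-Cas13d, and a log2 fold change of -2.26 (SE 0.24, edgeR adjusted p = 1.3e-06). COL8A1, a short-chain network collagen, was lower as well (-3.25). COL26A1, a little-studied collagen, had 11.1 and 16.1 CPM in EPN24-Cas13d, against 8.47 and 4.73 CPM in EPN24, a log2 fold change of 1.03 (SE 0.44). This was the weakest of the higher calls (edgeR adjusted p = 0.0444) and did not hold without EPN24-Cas13d replicate 2 (0.309), without EPN24 replicate 2 (0.172), with a replicate block (0.0600), by limma-voom (0.0730), by the DESeq2 Wald test (0.190), with total counts (0.321) or with background subtracted (0.319). Under the stricter filter its log2 fold change was 0.0026. COL8A2 and COL10A1 had too few counts for the test, since COL8A2 had 0 and 6 counts in EPN24-Cas13d, against 12 and 2 counts in EPN24, and COL10A1 had 0 in both EPN24-Cas13d libraries, against 5 and 0 counts in EPN24.

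**Figure D2:**
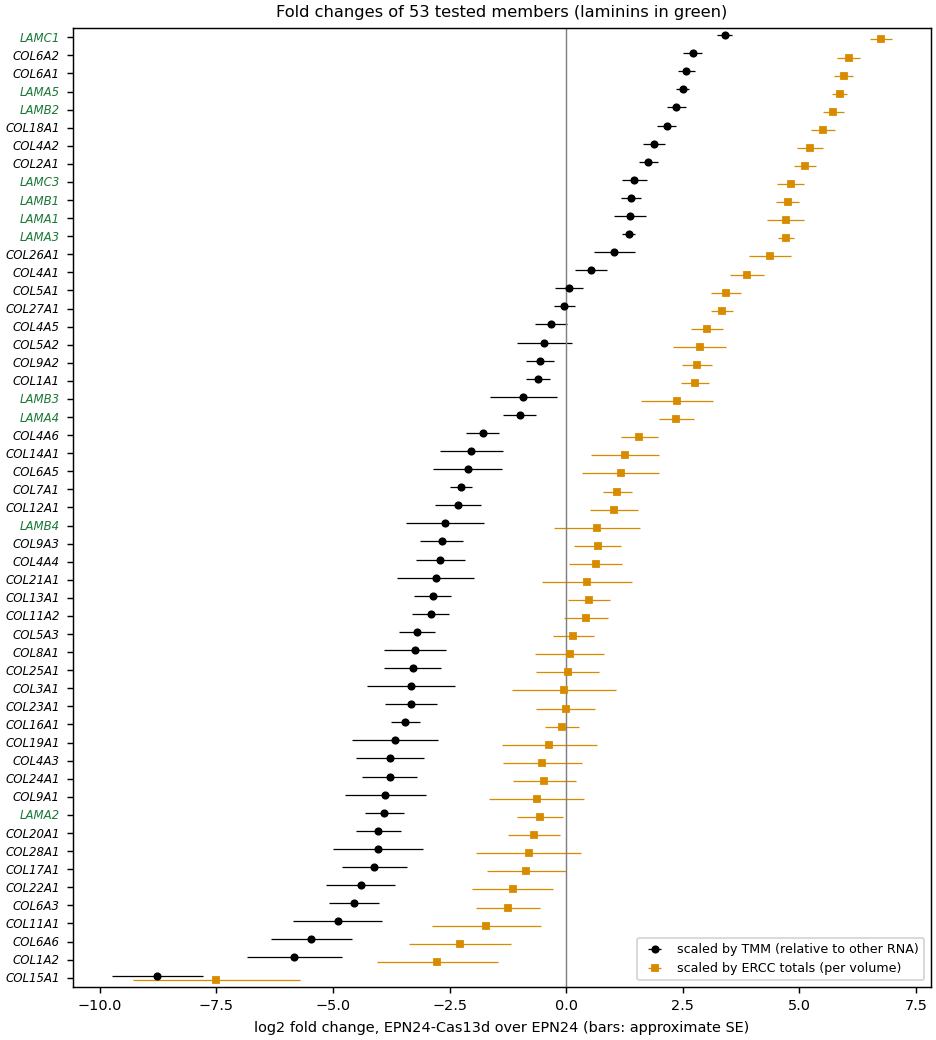
Log2 fold change of EPN24-Cas13d over EPN24 for 53 tested members, in order, with approximate SE bars; black circles are scaled by TMM and orange squares by ERCC totals, and laminin names are green. The order is much the same on both scales, but the orange values lie about 3.34 further right, so that COL15A1 alone is called lower there; its fitted value rests on 0 counts in EPN24-Cas13d and depends on the prior count.

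Per volume of supernatant some chains were higher and most of the others were not called. With ERCC scaling 24 members were higher, 1 lower and 29 not called, where over all tested genes 58.4% were called higher and 2.33% lower. The median log2 fold change of the members was 0.85, against 2.38 over all tested genes. All 13 members that were higher relative to other RNA were also higher per ERCC count, LAMC1 by a log2 fold change of 6.75 and COL26A1 by 4.37. All 7 that were not called relative to other RNA were higher per ERCC count. Of the 34 that were lower relative to other RNA, 29 were not called, COL15A1 was lower, and COL1A1 (2.76), LAMA4 (2.36), COL4A6 (1.57) and COL7A1 (1.09) were higher. By counts per ERCC count, 30 members in the higher and 10 in the lower direction had groups that did not overlap, and over all tested genes 65.9% and 13.6% did. For 53 members the log2 fold changes in the authors' deposited table lay within 0.119 of these ERCC-scaled values, while COL15A1, the member called lower, stood at -5.27 in the authors' deposited table and -7.50 by ERCC scaling, both fitted at 0 counts. The authors' deposited table put 22 members higher and 1 lower at an adjusted p under 0.05.

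As a family, collagens took less of the RNA in EPN24-Cas13d and laminins more. Collagen genes together held 0.0646% and 0.0684% of gene counts in EPN24-Cas13d, against 0.102% and 0.0864% in EPN24, a ratio of means of 0.706. Laminin genes held 0.102% and 0.101% in EPN24-Cas13d, against 0.0433% and 0.0387% in EPN24, a ratio of 2.48. Both ratios depend on a few abundant genes: without the 10 genes of most counts collagens held 0.0679% and 0.0722% in EPN24-Cas13d, against 0.205% and 0.189% in EPN24 (ratio 0.355), and laminins 0.107% and 0.107%, against 0.0871% and 0.0848% (ratio 1.25). The groups did not overlap for either family with or without those genes, and each comparison gave p = 0.333 in the exact two-sided permutation test, the smallest possible here. Laminin counts per collagen count were 1.58 and 1.48 in EPN24-Cas13d, against 0.424 and 0.448 in EPN24, a ratio that needs no scaling between libraries. Per ERCC count both families were higher, collagens 10.4-fold and laminins 36.4-fold, against 14.7-fold for all gene counts. A few chains made up each family in EPN24-Cas13d: its 6 leading collagens (COL6A1, COL6A2, COL18A1, COL2A1, COL4A2 and COL27A1) held 79.5% of collagen counts there, and the same genes held 22.6% in EPN24. The 6 leading laminins (LAMA5, LAMC1, LAMA3, LAMB2, LAMB1 and LAMC3) held 95.6% of laminin counts in EPN24-Cas13d and 73.8% in EPN24.

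The low level of many collagens was set beside that of genes not known to be active in this cell line. The 383 olfactory receptor genes, active mainly in the nose, held 0.174 and 0.137 counts per kb of exon in EPN24-Cas13d, against 1.79 and 1.40 in EPN24. In EPN24, 34 of the 56 members lay within 3 times that density, as did 48.9% of all tested genes. Among the 34 lower members 22 did so, and 8 were under the floor of 3 counts in each EPN24-Cas13d library. For such genes the EPN24 value is close to the density seen at silent genes, and the part of that density in the lower calls was looked at by subtraction. When that density was subtracted from every gene, a setting chosen after seeing the data, 42 members could be tested and 11 were higher and 22 lower, against 33.9% and 37.0% of all genes tested there. Of the 34 lower members only 23 could still be tested, and 21 of these stayed lower. The other lower call was COL9A2, not called before. The 13 higher members lay at 62.6 times (LAMA1) to 1122 times (LAMC1) the olfactory receptor density in EPN24-Cas13d, and at 1.27 to 9.33 times in EPN24. High multiples in EPN24-Cas13d were not limited to them. The 7 members not called lay at 15.4 to 109 times there. The 34 lower members lay at 0 to 63.6 times (COL1A1), 21 of them above 3 times. COL7A1 and COL16A1, lower relative to other RNA, were not near the olfactory receptor density in EPN24, at 8.06 and 6.74 times.

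**Figure D3:**
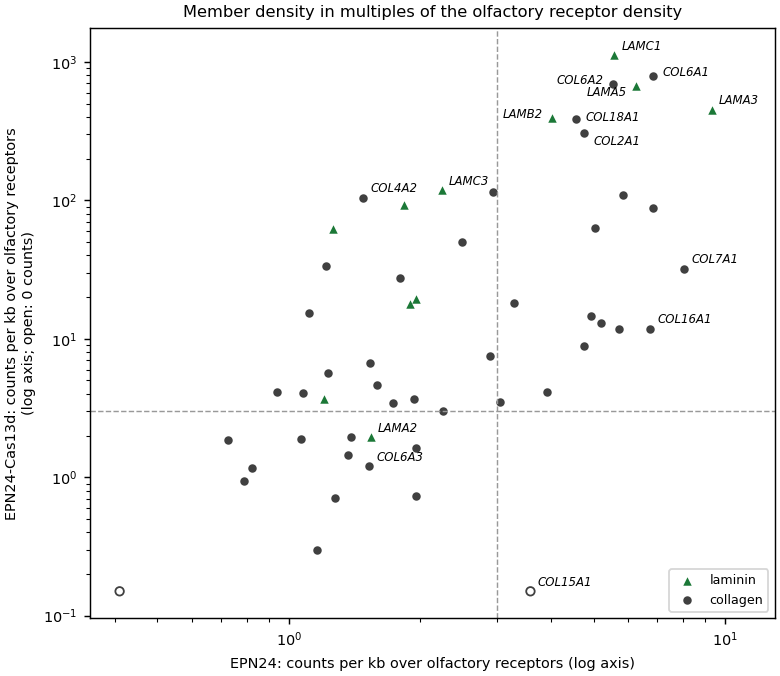
Mean counts per kb of exon of each member divided by that of the 383 olfactory receptor genes, in EPN24-Cas13d (vertical, log axis) and EPN24 (horizontal, log axis); triangles are laminins, circles collagens, open circles have 0 counts, and dashed lines mark 3 times the olfactory receptor density. The members spread from 0 to 1122 times in EPN24-Cas13d but only from 0.409 to 9.33 times in EPN24.

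Fold changes also went with base composition, as for all genes. The tested members had a median GC content of 53.9% in their longest transcript and a median exon length of 9172 bp, against 49.5% and 4695 bp over all tested genes. Across the 54 tested members GC content and log2 fold change had a Spearman rho of 0.42 (Pearson r 0.41), a description over genes that share the same libraries, and over all tested genes with a known GC content rho was 0.47. With length rho was 0.015 among members. Of the 20 tested members with at least 60% GC, 9 were higher, 8 lower and 3 not called, so that 45% were higher, against 62.6% of all tested genes in that range. Of the 28 under 55% GC, 4 were higher, and 22.6% of all tested genes there were. With the GC trend of all genes removed, 8 members were higher and 36 lower, against 30.5% and 41.2% of all tested genes. COL18A1, COL4A2, COL2A1, LAMC3 and COL26A1 were then not called, with log2 fold changes of -0.06, 0.29, 0.14, -0.41 and -0.84, and COL6A1 (0.79) and COL6A2 (0.58) were still called higher, as were LAMA5 (0.36) and LAMB2 (0.97). LAMC1, with 48.7% GC, then had a log2 fold change of 3.52, and COL6A3 one of -5.05.

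**Figure D4:**
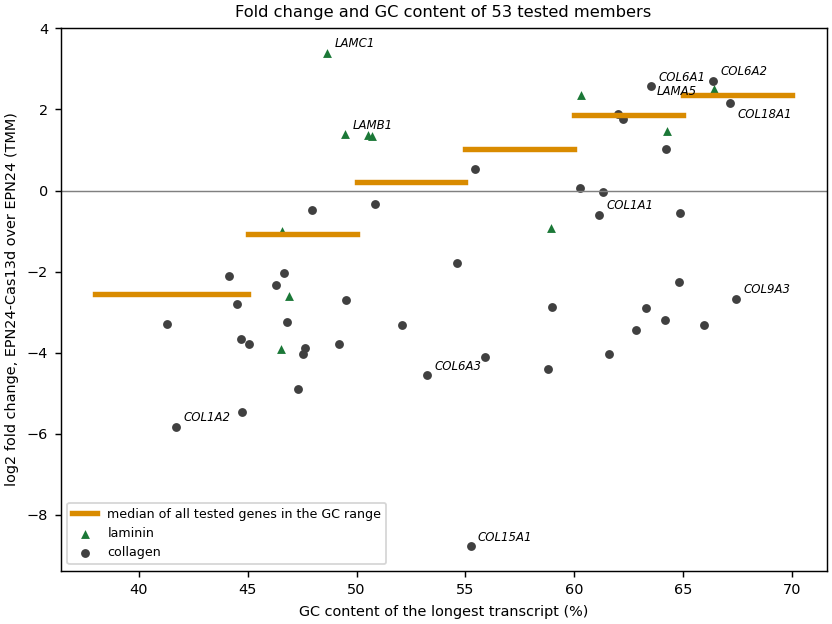
Log2 fold change of EPN24-Cas13d over EPN24 (TMM scaling) against the GC content of the longest transcript for 53 tested members; orange bars are medians of all tested genes in the same GC range, triangles laminins and circles collagens. Most collagens lie below the orange bar of their range, while LAMC1 lies far above it; the lowest point, COL15A1, is a fitted value at 0 counts in EPN24-Cas13d.

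Messages for the proteins that make, trim, anchor and receive these chains went in both directions. Of 83 genes in 6 lists, 75 were tested and 32 were higher, 22 lower and 21 not called, against 32.6% higher and 48.2% lower over all tested genes. In the list of collagen folding and export, 12 of 24 were higher: P4HA2, P4HB, PLOD1, PLOD3, P3H1, P3H3, P3H4, CRTAP, SERPINH1, COLGALT1, FKBP10 and KLHL12. P4HB, a subunit of the prolyl hydroxylase that stabilises the helix, had 1126 and 1116 CPM in EPN24-Cas13d, against 37.5 and 62.5 CPM in EPN24 (log2 fold change 4.49, SE 0.17, edgeR adjusted p = 1.1e-11). COLGALT1, which adds galactose to collagen, had 517 and 540 CPM in EPN24-Cas13d, against 22.3 and 27.0 CPM in EPN24 (4.42, SE 0.15, edgeR adjusted p = 4.8e-12). These increases exceed that of every collagen and laminin. The 7 lower genes of that list were P4HA3, PLOD2, FKBP14, MIA3, MIA2, SEC24D and SEC23A. MIA3 and MIA2 are cargo receptors and SEC24D and SEC23A coat proteins of export from the endoplasmic reticulum. These calls depend on the scale: per ERCC count MIA3 (1.12), SEC24D (2.29) and SEC23A (2.26) were higher and the other 4 were not called. With the GC trend removed, of these 7, SEC23A was higher (0.81, edgeR adjusted p = 0.0187) and P4HA3 (-2.81) and MIA3 (-0.96) were lower. PLOD2, FKBP14, MIA2 and SEC24D were not called (edgeR adjusted p = 0.456, 0.0547, 0.0682 and 0.237). The whole list then gave 14 higher and 4 lower, against 30.5% and 41.2% of all tested genes. PPIB (-0.70) and CREB3L1 (-2.53) were newly lower and P4HA1 (1.90) newly higher.

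Of 13 tested genes for procollagen trimming and crosslinking 7 were higher and 4 lower. PXDN, the peroxidase that crosslinks type IV collagen, had 127 and 127 CPM in EPN24-Cas13d, against 16.5 and 14.2 CPM in EPN24 (3.04, SE 0.20), and BMP1, which trims procollagens, had a log2 fold change of 2.84. Of 11 basement membrane partners 7 were higher and 3 lower. NID1, nidogen, which ties laminin to type IV collagen, had 483 and 486 CPM in EPN24-Cas13d, against 32.1 and 68.2 CPM in EPN24 (3.28, SE 0.21), and AGRN, agrin, which binds laminin, had a log2 fold change of 2.78. Collagen receptors gave 2 higher (MRC2 2.62, DDR1 1.84) and 5 lower of 10, and laminin receptors 2 higher (CD151 3.93, DAG1 2.21) and 1 lower of 7 (4 lower under the stricter filter). Of the matrix proteases and their inhibitors 10 of 17 were tested, 2 were higher and 2 lower, with MMP15 at 2.69 and MMP16 at 0 counts in both EPN24-Cas13d libraries, against 16 and 13 counts in EPN24. With ERCC scaling 59 of the 75 were called higher and 1, MMP16, lower, against 58.4% and 2.33% of all tested genes. With the GC trend removed 28 of the 75 were higher and 25 lower, against 30.5% and 41.2% of all tested genes. Laminin receptors then gave 2 higher and 5 lower, basement membrane partners 6 higher and 5 lower, and trimming and crosslinking genes 4 higher and 3 lower. HSPG2, perlecan, a basement membrane proteoglycan, turned to -0.69 (edgeR adjusted p = 0.0037), against 1.21 without that step, and DDR1 (0.30) and MMP15 (0.62) were not called. Under the stricter filter 7 of the basement membrane partners could be tested, 3 were higher and 0 lower, against 39.7% and 40.2% of all genes it kept.

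**Figure D5:**
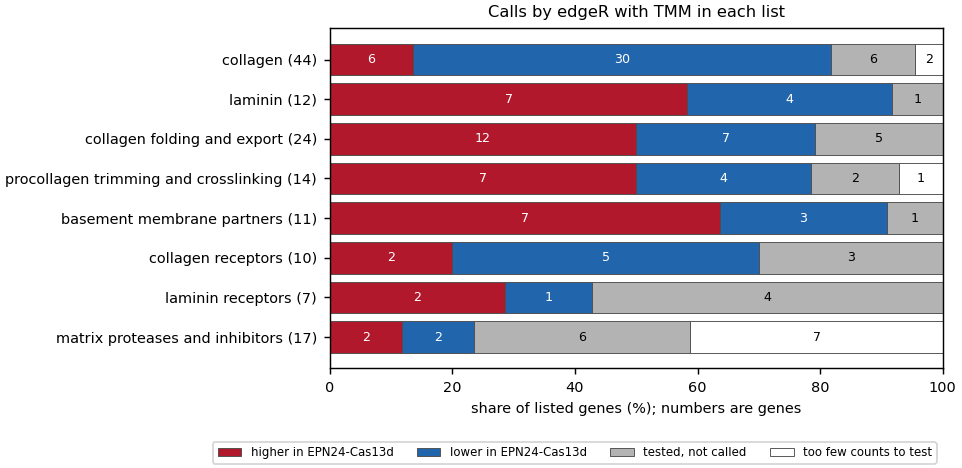
Share of listed genes (horizontal axis, %) called higher (red) or lower (blue) in EPN24-Cas13d than in EPN24 by edgeR with TMM scaling, not called (grey) or not tested (white), with the number of genes written in each bar. Collagens have the most lower calls, 30 of 44, while basement membrane partners (7 of 11) and laminins (7 of 12) have mostly higher ones. Per ERCC count a single member, COL15A1, and a single partner gene, MMP16, are called lower.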

How the data were processed

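Per the labels' protocols, 150-nt read pairs were sequenced from 4 libraries amplified for 17 PCR cycles. Tools named in the submitters' processing notes are DESeq2 1.36.0, STAR 2.7.10a, FastQC 0.11.9, Trim Galore 0.6.7 and Subread with featureCounts 2.0.1, and the build is 38. Not given in the sources used here were strand setting, multi-mapping option and annotation release. The authors deposited expected counts per gene without normalization, 7.83% to 9.20% of them not whole in each library, with an exon length in bp (another unit). Whole counts were even in 66.8% to 72.4% of cases, as when both mates are counted. A table of the authors' own comparison, also deposited, gives a mean normalized count (signal), a log2 fold change with its SE, the Wald score and p-values, and no source used here states the model behind it.

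All 4 columns matched a sample title, and 5 broken rows were left out. Values of 1 laminin and a sequence stretch are not reported here. After rounding, edgeR 4.0.16 under R 4.3.3 tested 20476 of 61543 genes (filterByExpr, TMM without ERCC rows, robust quasi-likelihood test, Benjamini-Hochberg threshold 0.05). SE values are approximate, from the fold change and F. Single values were compared by exact permutation. GENCODE 29 gave the longest transcript and its GC content for 97.3% of tested genes, and positions follow the deposited table. Both the members and the gene lists were chosen with earlier results of these data known. Shown in full were the member of highest level per length in each class, the 6 largest and the 6 most negative changes among called members without overlap, 6 set chains (COL4A1, COL4A2, COL18A1, LAMA5, LAMB1, LAMC1) and, per partner list, the 2 genes of smallest p.

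The settings varied were the scaling (size factors of DESeq2 1.42.0, total counts, ERCC totals), the filter (none or stricter), the test (DESeq2 Wald, limma-voom with limma 3.58.1), a block for replicate number, the omission of any library and the removal of a GC trend. Halved counts and a subtracted background were added after seeing the data.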

Additional observations from a re-analysis of the deposited data

How the results depend on the processing

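Main counts were 13 members higher and 34 lower, and DESeq2 size factors, total counts, no filter, the DESeq2 Wald test, limma-voom and halved counts kept both within 1.5 times of these. Leaving out each library in turn gave 12 to 14 higher and 25 to 32 lower. For the partner genes it gave 31 to 34 higher and 14 to 22 lower, with 14 lower without EPN24 replicate 1 or 2, against 22 with all libraries. Scaling by ERCC totals gave 24 members higher and 1 lower, and 59 partner genes higher and 1 lower. With the GC trend removed 8 members were higher, and with background subtracted 22 of 42 testable members and 13 of 64 testable partner genes were lower. The median log2 fold change of tested members, -2.46, was -2.98 with total counts, 0.85 with ERCC totals, -2.10 without a filter, -2.57 with limma-voom, -2.35 with the GC trend removed, -1.56 with background subtracted, and -2.63 to -2.21 with a library left out. The collagen share ratio was 10.4 per ERCC count, 0.355 without the 10 top genes and 0.652 to 0.770 with a library left out, and the laminin ratio 36.4, 1.25 and 2.35 to 2.63.

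With ERCC totals these members turned to a positive log2 fold change: COL9A2 2.80, LAMB3 2.38, COL5A2 2.86, COL4A4 0.63, COL7A1 1.09, COL8A1 0.071, COL6A5 1.17, COL25A1 0.036, COL11A2 0.42, COL21A1 0.45, COL12A1 1.03, LAMA4 2.36, LAMB4 0.67, COL14A1 1.27, COL27A1 3.34, COL13A1 0.48, COL1A1 2.76, COL5A3 0.15, COL9A3 0.67, COL4A6 1.57 and COL4A5 3.03. With the GC trend removed COL26A1 (-0.84), LAMC3 (-0.41), COL5A1 (-1.32), COL4A1 (-0.25) and COL18A1 (-0.059) turned negative. COL27A1 turned to 0.32 without a filter, 0.0075 with limma-voom and 0.39 without EPN24 replicate 2 (-0.35 to 0.39 with a library left out). In the other direction COL27A1 was called lower with total counts (-0.54, edgeR adjusted p = 0.0302), the stricter filter (-1.07, 0.0015) and the GC trend removed (-1.55, 5.9e-06). COL5A1 turned to -0.45 with total counts, -0.97 with the stricter filter, -0.14 with background subtracted, -0.22 without EPN24-Cas13d replicate 2 and -0.070 without EPN24 replicate 1 (-0.22 to 0.30 with a library left out). COL4A1 was at -0.49 with the stricter filter, COL4A5 at 0.030 without a filter and the LAMB3 log2 fold change at 0.31 without EPN24 replicate 1 (-1.75 to 0.31 with a library left out). COL4A5 was called lower with total counts (-0.84, edgeR adjusted p = 0.0343) and the stricter filter (-1.35, 0.0025). The causes were not tested, beyond the shift that ERCC scaling brings to all genes.

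Same-numbered libraries shared no deviation from their group means, with a correlation of -0.0041 over all tested genes. With 2 libraries per group this cannot tell whether they were prepared in pairs, and no label says what the numbers mark. A fit with the replicate block gave 12 members higher and 32 lower, and 32 and 22 partner genes. With 10 of the 54 tested members at 5 or fewer counts over both EPN24-Cas13d libraries, depth limits how far the lowest collagens can be ranked.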
